A study of Homo sapiens with 10 samples.

Results

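Heat shock proteins, the J-proteins that drive them and the BAG co-chaperones were followed in SH-SY5Y cells that carried wild-type SOD1 or SOD1(G93A). Members were every gene with a symbol that begins with HSPA (HSPA5 left out), HSPB, DNAJA, DNAJB or DNAJC, BAG1 to BAG6, and HSPH1, HSPD1, HSPE1, HSP90AA1, HSP90AB1 and CRYAB, where the array annotation gave a probe set exactly 1 gene symbol. This gave 62 genes of 14232 named genes, each read by its probe set with the highest mean over the 10 arrays. The prefix also took in DNAJA1P5, a pseudogene, and HSPBP1 and HSPBAP1, which bind heat shock proteins without being one. A further 19 symbols, among them HSPA1A, HSPA1B, HSPA6, HSPA9, HSP90AB1, CRYAB, HSPB8, DNAJB6 and DNAJC5, stood only on probe sets with several symbols and were not analysed here.

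SH-SY5Y is a human neuroblastoma line, and SOD1(G93A) is a form of copper-zinc superoxide dismutase that causes familial amyotrophic lateral sclerosis. Both groups were stably transfected and grown with G418, so both carried a SOD1 construct and its resistance gene, and neither was an untransfected control. Wild-type SOD1 samples 2, 8, 11, 14 and 17 (n = 5) were set against SOD1(G93A) samples 3, 9, 12, 15 and 18 (n = 5), each on 1 Affymetrix exon array. The sources used here do not give the promoter of the construct, whether a line is clonal, or whether separate cultures gave the samples of each group. The construct and any other difference between the lines therefore cannot be told apart. The p-values measure the spread between these arrays alone, and that spread may be technical.

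HSP70 proteins bind exposed stretches of unfolded proteins in a cycle of ATP hydrolysis and exchange. J-proteins bring clients and start the hydrolysis, and HSP110 and BAG proteins release the nucleotide, and with it the client. HSP90 and the mitochondrial chaperonin complete folding, and small heat shock proteins hold unfolded proteins in a soluble state. The transcription factor HSF1 raises many of these genes under heat or misfolded protein, through repeats of GAA and its complement in their promoters, and mutant SOD1 is itself a protein that misfolds and aggregates.

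Promoters are shown for the members with the lowest adjusted p values in the comparison (HSPA2 and BAG3) and for a pair of abundant chaperones with heat shock motifs (HSPA8 and HSP90AA1). Each is the 250 bases before a RefSeq start site (GRCh38.p14), 5′ to 3′ on the gene's strand. HSPA2 lies at chr14:64540491-64540740 on the plus strand, BAG3 at chr10:119651130-119651379 on the plus strand, HSPA8 at chr11:123062137-123062386 on the minus strand and HSP90AA1 at chr14:102087045-102087294 on the minus strand. HSP90AA1 has 2 start sites in that table, and the one with a motif is shown. Capitals mark GAANNTTC and TTCNNGAA, each of which reads the same on both strands and may overlap the other.
HSPA2: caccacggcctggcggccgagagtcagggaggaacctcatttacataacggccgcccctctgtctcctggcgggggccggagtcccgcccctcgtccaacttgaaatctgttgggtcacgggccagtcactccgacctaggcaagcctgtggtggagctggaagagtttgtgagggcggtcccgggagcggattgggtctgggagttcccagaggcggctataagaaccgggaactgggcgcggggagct
BAG3: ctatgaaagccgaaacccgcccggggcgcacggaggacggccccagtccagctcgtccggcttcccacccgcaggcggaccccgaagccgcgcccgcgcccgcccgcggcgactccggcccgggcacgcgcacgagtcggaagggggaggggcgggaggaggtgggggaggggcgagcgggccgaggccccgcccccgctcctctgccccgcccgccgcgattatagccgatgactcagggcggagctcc
HSPA8: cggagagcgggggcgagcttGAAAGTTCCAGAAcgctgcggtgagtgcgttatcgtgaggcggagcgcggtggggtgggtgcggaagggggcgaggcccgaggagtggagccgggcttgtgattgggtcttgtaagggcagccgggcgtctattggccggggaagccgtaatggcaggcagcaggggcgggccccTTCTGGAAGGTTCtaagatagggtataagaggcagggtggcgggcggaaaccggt
HSP90AA1: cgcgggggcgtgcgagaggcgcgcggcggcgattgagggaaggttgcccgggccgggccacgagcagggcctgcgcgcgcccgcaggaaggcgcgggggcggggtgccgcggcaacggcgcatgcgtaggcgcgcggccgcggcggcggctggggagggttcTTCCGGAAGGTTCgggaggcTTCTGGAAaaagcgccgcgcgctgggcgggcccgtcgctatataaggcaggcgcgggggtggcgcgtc

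RefSeq windows of 300 bases (250 before to 50 after a start) were found for 53 of the 62 members, 73 windows in all. GAANNTTC stood in 12 of these windows (16.4%), against 6.77% of all 35116 windows, and TTCNNGAA in 8 (11%), against 7.74%. Their overlap in a run, GAANNTTCNNGAA or its reverse complement TTCNNGAANNTTC, stood in 4 member windows (5.48%), against 0.49% of all. Those 4 belonged to HSPA8, HSP90AA1, DNAJA1 and HSPD1. In HSPA8 the run began 230 and 55 bases before the start, and in HSP90AA1 88 bases before it. GAANNTTC or TTCNNGAA stood in 15 of the 73 member windows (20.5%), of 14 genes, against 13.5% of all windows. None of these 14 genes was among the 4 whose level passed the test below, which says only that these letters were not found there. A gene without a window would count the same way.

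The values were log2 RMA levels with array medians between 6.26 and 6.34. SOD1 was read by a probe set that may see endogenous and transfected copies alike and so does not check the labels. It was 9.78 ± 0.13 with wild-type SOD1 and 9.55 ± 0.09 with SOD1(G93A) (SD, n = 5). The difference of −0.23 did not pass the test adjusted over all probe sets (limma adjusted p = 0.107). Taken as a single gene, SOD1 was lower with SOD1(G93A) by an exact permutation test (p = 0.0159, smallest possible 0.00794). Its ranges overlapped, from 9.62 to 9.92 with wild-type SOD1 and from 9.42 to 9.64 with SOD1(G93A). Of 10 noradrenergic neuroblastoma markers 6 were measured, which here and below means read by a probe set with exactly 1 symbol. Of these, 5 lay above the median probe set. CHGA rose and GATA3 fell, and the array means of the list ran from 9.27 to 9.44 with wild-type SOD1 and from 9.40 to 9.60 with SOD1(G93A). Of 10 markers of S-type, mesenchymal neuroblastoma cells 4 rose and 1 fell, and their mean ranged from 6.70 to 6.87 in wild-type and from 6.79 to 6.94 in SOD1(G93A) arrays. PRRX1 lay below the lower quartile of all levels, SNAI2 was the marker that fell, and FN1, CD44, VIM and YAP1 rose. Of 4 measured Schwann and glial markers S100B rose, with means of 4.32 to 4.38 against 4.48 to 4.63 and ERBB3 below the lower quartile. Of 5 measured markers of immune and endothelial cells 0 passed the test, their means ran from 3.61 to 3.80 against 3.64 to 3.75, and PTPRC, CD3E and PECAM1 lay below the lower quartile. The part of these markers in the values below was not tested; in bulk samples a change in the share of a cell type and in the RNA per cell cannot be told apart.

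Of the 62 chaperone and co-chaperone genes 58 did not pass the test between the lines, and none changed 2-fold. By limma, with p adjusted by Benjamini-Hochberg over the 22011 probe sets, 3 of the 62 members fell in SOD1(G93A) cells (HSPA2, BAG3 and HSPA12A) and 1 rose (DNAJC28). That is 6.45% of the members, against 9.60% of named genes and 7.46% of all probe sets. Among named genes 4.03% rose and 5.57% fell, and among all probe sets 3.24% and 4.23%. Of the 42 members above the median level 2 were called, against 11.5% of named genes above it. The labels also ask for a 2-fold change, which 0 members and 1.18% of named genes passed together with the adjusted p. At an unadjusted p under 0.05 there were 12 members, 6 higher and 6 lower, or 19.4% against 21.7% of named genes. The groups did not overlap in 4 members (HSPA2, BAG3, HSPA12A and DNAJC16), or 6.45% against 11.4%. These shares were below those of all named genes, but they rest on 12 or fewer members each. Whether they differ from those of named genes was not tested. The plot of cumulative fold changes sets the members beside all named genes.

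**Figure D1:**
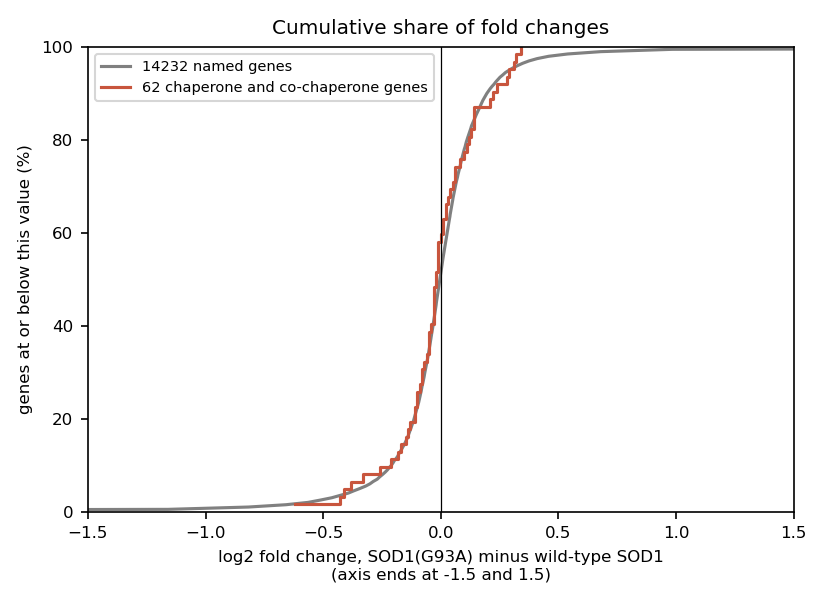
Cumulative share of genes (%, y axis) at or below each log2 fold change of SOD1(G93A) minus wild-type SOD1 (x axis), for the 62 chaperone and co-chaperone genes (red steps) and the 14232 named genes (grey line). The medians were −0.018 and −0.004, and the members end at −0.62 and 0.34 while named genes run on to −5.95 and 5.70, beyond the ends of the axis.

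The members' log2 fold changes ran from −0.62 to 0.34 with a median of −0.018, against −0.004 over named genes, and 36 were below and 26 above 0. Their median size without sign was 0.091, against 0.086 over named genes. The 95% interval stayed inside 1 on either side of 0 in all 62 members, so a 2-fold difference lay outside each of these intervals. It stayed inside 0.5 in 48 of the 58 members that were not called. In 8 members the level lay under the lower quartile of the array (HSPB3, DNAJA4, DNAJB3, DNAJB8, DNAJB13, DNAJC5B, DNAJC5G and the pseudogene DNAJA1P5). The plot of fold changes by class shows these intervals.

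**Figure D2:**
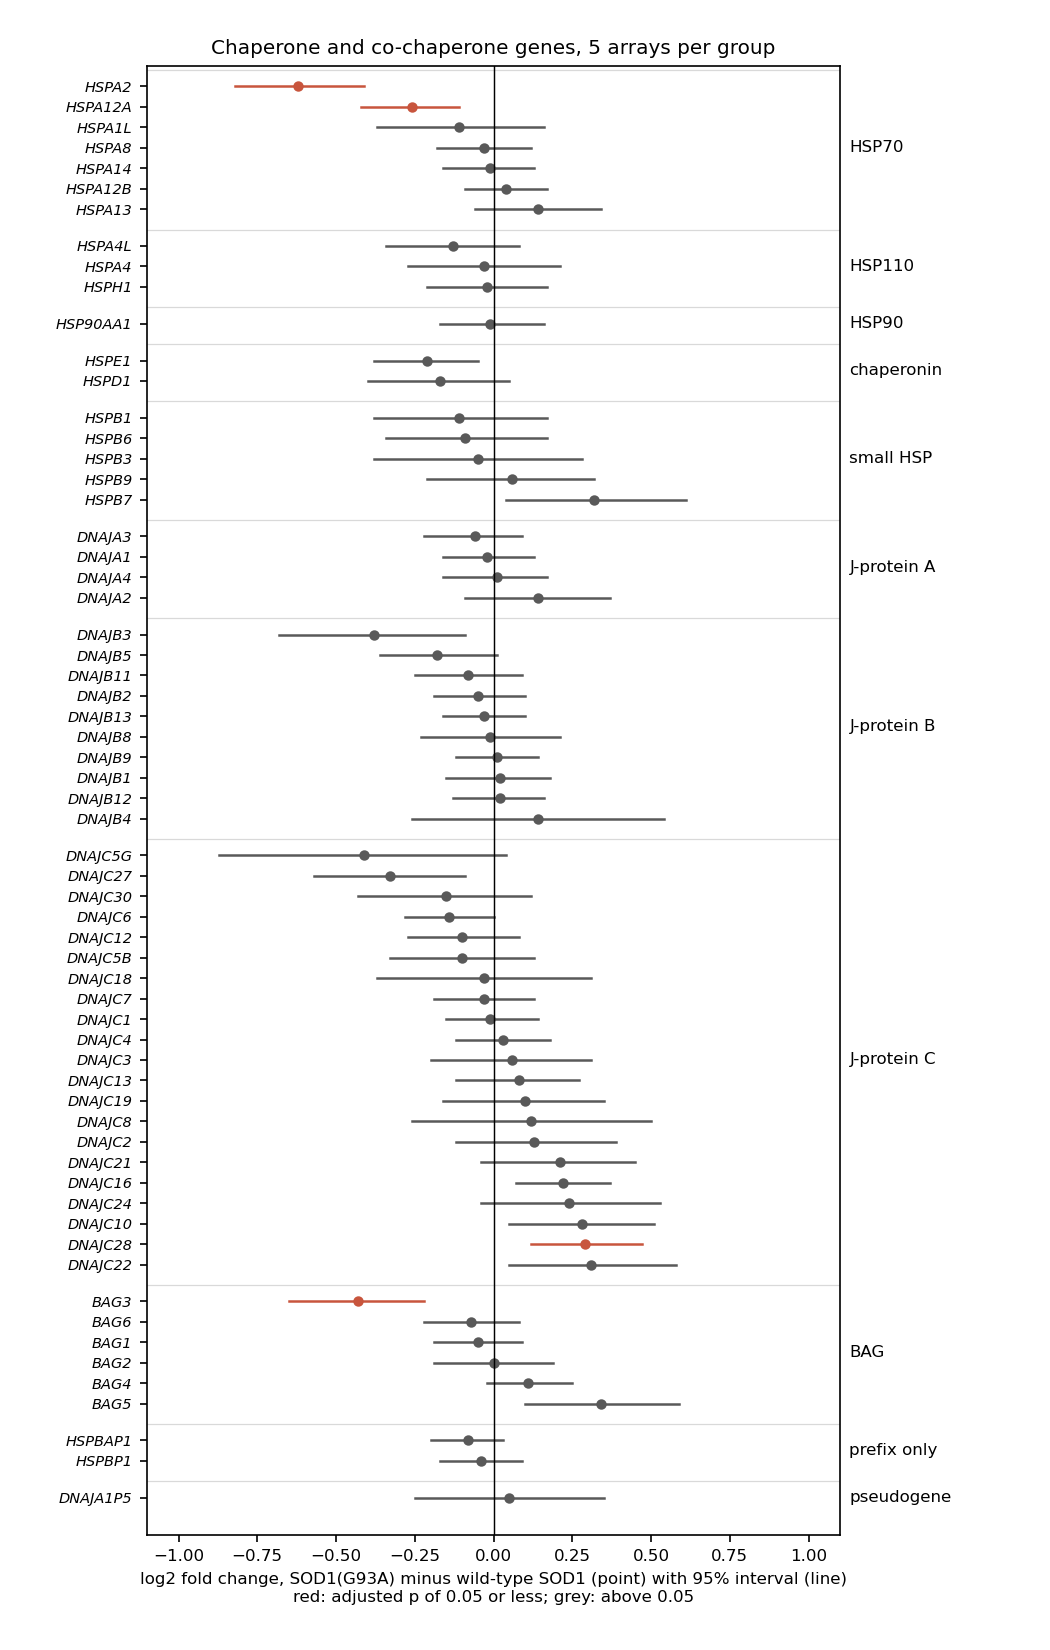
Log2 fold change, SOD1(G93A) minus wild-type SOD1 (x axis; points), with its 95% interval (lines) for each of the 62 genes, grouped by class (5 arrays per group). HSPA2, HSPA12A and BAG3 lie to the left and DNAJC28 to the right in red (adjusted p of 0.05 or less), and no interval reaches 1 on either side.

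HSP70 genes held the largest change. HSPA2, an HSP70 needed for sperm formation and also made in brain, read 7.67, 7.58, 7.71, 7.63 and 8.10 in wild-type samples 2, 8, 11, 14 and 17. It read 7.09, 7.08, 7.07, 7.19 and 7.16 in SOD1(G93A) samples 3, 9, 12, 15 and 18. Every wild-type array lay above every SOD1(G93A) array, and the SOD1(G93A) arrays lay close together. HSPA2 fell by 0.62 on the log2 scale (SE 0.09, 95% interval −0.82 to −0.41), to 65.1% of the wild-type level (limma adjusted p = 0.00177). The call was kept without any 1 array (adjusted p up to 0.00636), and without wild-type sample 17 the difference was −0.53.

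HSPA12A, a distant HSP70 relative abundant in brain, read 7.96, 8.00, 8.22, 8.11 and 7.91 in the wild-type arrays and 7.85, 7.80, 7.80, 7.65 and 7.78 in the SOD1(G93A) arrays, in the same order. The groups did not overlap, but the gap between them was narrow. It fell by 0.26 (SE 0.07; adjusted p = 0.0483), and the adjusted p passed 0.05, up to 0.115, when any 1 of 9 arrays was left out. Of single omissions the call stood only without wild-type sample 17, and the ordinary linear model did not make it (adjusted p = 0.0562). The other 5 HSP70 genes were not called. HSPA8, the constitutive HSC70 that also strips clathrin from vesicles, was 13.40 ± 0.06 and 13.37 ± 0.12 (SD, n = 5 each; difference −0.03, 95% interval −0.18 to 0.12). HSPA14, an HSP70 found at the ribosome, differed by −0.01 (SE 0.07) and HSPA13, an HSP70 of the endoplasmic reticulum, by 0.14 (SE 0.09). The testis HSP70 HSPA1L, a close relative of HSPA1A and HSPA1B, differed by −0.11 (SE 0.12), and HSPA12B by 0.04 (SE 0.06). Members of this family are alike in sequence, and how far a probe set reads a relative was not tested.

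**Figure D3:**
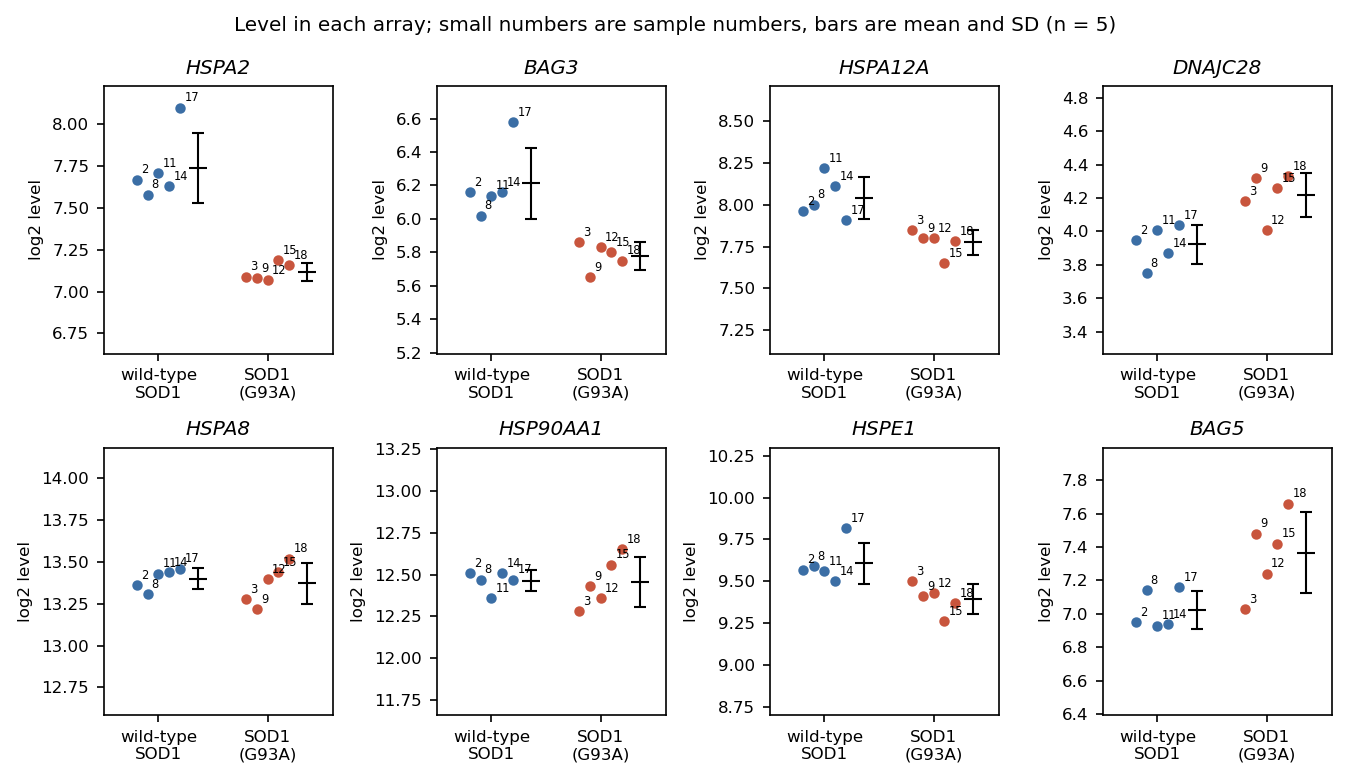
Log2 level (y axis; all panels span the same height in log2 units) in each array of wild-type SOD1 (blue) and SOD1(G93A) (red), with sample numbers beside the points and mean and SD (n = 5) as bars. HSPA2, BAG3 and HSPA12A do not overlap between groups, DNAJC28 overlaps in 1 array, and HSPA8, HSP90AA1, HSPE1 and BAG5 overlap.

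HSP110, HSP90 and chaperonin genes were not called. HSPH1, HSPA4 and HSPA4L, the HSP110 exchange factors of HSP70, differed by −0.02 (SE 0.09), −0.03 (SE 0.11) and −0.13 (SE 0.10). HSP90AA1, the stress-inducible cytosolic HSP90, was 12.46 ± 0.06 and 12.46 ± 0.15 in the 2 groups (SD, n = 5 each; 95% interval of the difference −0.17 to 0.16). HSPE1, the lid of the mitochondrial chaperonin, read 9.57, 9.59, 9.56, 9.50 and 9.82 in wild-type arrays 2, 8, 11, 14 and 17 and 9.50, 9.41, 9.43, 9.26 and 9.37 in SOD1(G93A) arrays 3, 9, 12, 15 and 18. The groups met at 9.50, and the difference of −0.21 (SE 0.07) did not pass the test (adjusted p = 0.119). HSPD1, the chaperonin ring, differed by −0.17 (SE 0.10; adjusted p = 0.417). HSPD1 and HSPE1 are neighbours on chromosome 2, and the 10 measured genes around each held no called gene.

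Small heat shock proteins were not called. HSPB1 (HSP27), which binds actin and unfolded proteins, was 11.06 ± 0.21 and 10.95 ± 0.22 (SD, n = 5 each; difference −0.11, 95% interval −0.38 to 0.17). HSPB7, a heart and muscle form, ranged from 3.93 to 4.30 in wild-type and from 3.96 to 4.63 in SOD1(G93A) arrays. Its groups overlapped, with SOD1(G93A) sample 3 among the wild-type values, and its difference was 0.32 (SE 0.13; adjusted p = 0.2, and 0.0157 without that sample). HSPB6 and HSPB9 differed by −0.09 (SE 0.12) and 0.06 (SE 0.12), and HSPB3, below the lower quartile in level, by −0.05 (SE 0.15).

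J-proteins, with 35 members the largest class, had 1 call. DNAJC28, whose role is little known, read 3.95, 3.75, 4.01, 3.87 and 4.04 in wild-type arrays and 4.18, 4.32, 4.01, 4.26 and 4.33 in SOD1(G93A) arrays. SOD1(G93A) sample 12 lay among the wild-type values and the other 4 above them. It rose by 0.29 (SE 0.08; adjusted p = 0.0491), at a level close to the first quartile of probe sets (3.87). With any 1 of 9 arrays left out the adjusted p passed 0.05, up to 0.116, and of single omissions the call stood only without SOD1(G93A) sample 12. DNAJC16, named after its values were seen, was the other J-protein near the threshold: its groups did not overlap (6.71 to 6.91 against 6.92 to 7.21), and its difference of 0.22 (SE 0.07) had an adjusted p of 0.0788.

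Cytosolic and mitochondrial J-proteins of class A ranged from −0.06 (DNAJA3, of mitochondria) to 0.14 (DNAJA2, a partner of HSP70 in refolding), with 0 of 4 called. DNAJA1 differed by −0.02 (SE 0.07), and DNAJA4, below the lower quartile in level, by 0.01 (SE 0.07). The pseudogene DNAJA1P5, at 2.75 ± 0.25 and 2.80 ± 0.22 (SD, n = 5 each), differed by 0.05 (SE 0.13). In class B 0 of 10 were called. DNAJB1, the heat-inducible HSP40, was 9.79 ± 0.14 and 9.81 ± 0.07 (SD, n = 5 each; 95% interval of the difference −0.15 to 0.18). DNAJB2, a neuronal J-protein that feeds clients to the proteasome, differed by −0.05 (SE 0.07). DNAJB3 had the largest difference of the class, −0.38 (SE 0.13; adjusted p = 0.126), under the lower quartile of levels. With wild-type sample 14 left out it passed the test at −0.48 (adjusted p = 0.0337). The others of class B (DNAJB4, DNAJB5, DNAJB8, DNAJB9, DNAJB11, DNAJB12 and DNAJB13) lay between −0.18 and 0.14, with DNAJB8 and DNAJB13 below the lower quartile in level. DNAJB9 and DNAJB11 serve the endoplasmic reticulum and differed by 0.01 (SE 0.06) and −0.08 (SE 0.08). DNAJB13 alone had more than 1 probe set, and these gave −0.03 and 0.03.

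Class C joins J-proteins of many compartments, and 12 of its 21 members lay above and 9 below 0. DNAJC10, a disulfide reductase of the endoplasmic reticulum, ranged from 8.08 to 8.33 in wild-type and from 8.28 to 8.82 in SOD1(G93A) arrays, highest in sample 18. It differed by 0.28 (SE 0.10), which did not pass the test (adjusted p = 0.163). DNAJC6, the neuronal auxilin of clathrin uncoating, differed by −0.14 (SE 0.06; adjusted p = 0.277). DNAJC7, a cytosolic J-protein that links HSP70 with HSP90, differed by −0.03 (SE 0.07), and DNAJC12, a partner of the aromatic amino acid hydroxylases, by −0.10 (SE 0.08). DNAJC3, an inhibitor of the stress kinase of the endoplasmic reticulum, differed by 0.06 (SE 0.12). DNAJC2, the ribosomal partner of HSPA14, differed by 0.13 (SE 0.12), and DNAJC13, of endosomes, by 0.08 (SE 0.09). DNAJC22 had the highest difference of the class (0.31, SE 0.12; adjusted p = 0.18). The other 10 (DNAJC1, DNAJC4, DNAJC5B, DNAJC5G, DNAJC8, DNAJC18, DNAJC19, DNAJC21, DNAJC24 and DNAJC30) lay between −0.41 and 0.24, and DNAJC27 at −0.33. Of these, DNAJC5B and DNAJC5G were below the lower quartile in level.

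Among BAG co-chaperones BAG3 fell. BAG3 couples HSP70 to small heat shock proteins and sends aggregated proteins to autophagy. It read 6.16, 6.02, 6.14, 6.16 and 6.58 in wild-type samples 2, 8, 11, 14 and 17 and 5.86, 5.65, 5.83, 5.80 and 5.75 in SOD1(G93A) samples 3, 9, 12, 15 and 18. All wild-type arrays lay above all SOD1(G93A) arrays, with sample 17 apart from the other wild-type ones. BAG3 fell by 0.43 (SE 0.10, 95% interval −0.65 to −0.22), to 74.1% of the wild-type level (adjusted p = 0.0211), and the call was lost without SOD1(G93A) sample 9 (adjusted p = 0.0569). Without wild-type sample 17 the difference was −0.34.

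BAG5, which restrains HSP70 and the ligase parkin, ranged from 6.93 to 7.16 in wild-type and from 7.03 to 7.66 in SOD1(G93A) arrays. SOD1(G93A) sample 3 lay among the wild-type values and the other 4 above them. Its difference was 0.34 (SE 0.11; adjusted p = 0.105), and without that sample it was called higher at 0.43 (adjusted p = 0.024). BAG1, which links HSP70 to the proteasome, differed by −0.05 (SE 0.06) and BAG2, an inhibitor of the ligase CHIP, by 0.00 (SE 0.09). BAG4 differed by 0.11 (SE 0.06) and BAG6, which handles mislocated membrane proteins, by −0.07 (SE 0.07). HSPBP1, a nucleotide exchange factor of HSP70, differed by −0.04 (SE 0.06) and HSPBAP1 by −0.08 (SE 0.05).

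Heat-inducible members share HSF1 as a regulator and were examined by array. Of 15 such genes listed 11 were measured: HSPA8, HSPA4L, HSPH1, HSPD1, HSPE1, HSP90AA1, HSPB1, DNAJA1, DNAJB1, DNAJB4 and BAG3. HSPA1A, HSPA1B, HSPA6 and CRYAB, also listed, stood only on probe sets with several symbols and were not analysed here. Of the 11 measured, BAG3 fell and the other 10 were not called. Of the 11 differences 9 lay below 0, with a median of −0.029, while 7308 of the 14232 named genes lay below 0, with a median of −0.004. Relative to each gene's mean over 10 arrays, their average deviation was 0.031, −0.072, 0.082, 0.008 and 0.172 in wild-type samples 2, 8, 11, 14 and 17. It was −0.072, −0.119, −0.085, −0.038 and 0.093 in SOD1(G93A) samples 3, 9, 12, 15 and 18. Samples 8 and 9 were the lowest of their groups. Samples 17 and 18 were the highest, and 9 of the 11 genes had their highest value in one or the other, 4 in sample 17 and 5 in sample 18. The arrays were not high in the same genes, as DNAJB4, HSPA4L, HSPH1 and HSP90AA1 were highest in sample 18, while there BAG3, HSPD1, HSPE1 and HSPB1 lay below their means. Over all 62 members sample 17 was the highest wild-type array in 37.1% and sample 18 the highest SOD1(G93A) array in 43.5%, against 28.8% and 29.1% of named genes. The groups' means over the list were 9.475 ± 0.090 and 9.387 ± 0.082 (SD, n = 5 each) and their arrays overlapped. Within each set of adjacent sample numbers, such as 2 and 3, the SOD1(G93A) array had the lower mean. The labels name no pairs, and this order was not tested. The plot of deviations by array shows each gene.

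**Figure D4:**
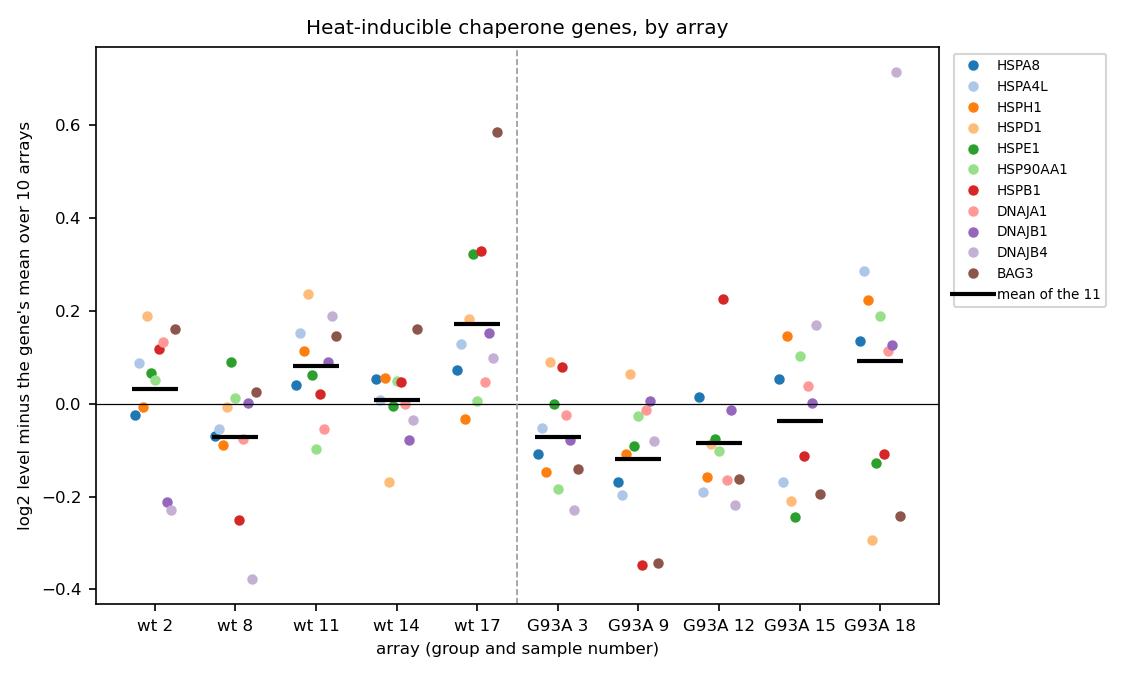
Log2 level minus the gene's mean over 10 arrays (y axis) for 11 heat-inducible genes (coloured points) and their mean (black bars) in each array (x axis: group and sample number). The means are highest in wild-type sample 17 (0.172) and SOD1(G93A) sample 18 (0.093) and lowest in SOD1(G93A) sample 9 (−0.119).

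Partners of these chaperones were not called either. The list held 50 partners: heat shock factors, HSP90 and HSP70 co-chaperones, chaperones of the endoplasmic reticulum and of mitochondria, and the cytosolic chaperonin with prefoldin. Of these 36 were measured, and limma called 0, against 9.60% of named genes. At an unadjusted p under 0.05 there were 4 higher and 4 lower, or 22.2% against 21.7% of named genes, and the ordinary linear model called 0. HSF1, the master regulator of the heat shock response, was 6.97 ± 0.24 and 6.91 ± 0.17 (SD, n = 5 each; difference −0.06, 95% interval −0.33 to 0.21). HSPA5, the HSP70 of the endoplasmic reticulum, differed by 0.03 (SE 0.09). CHORDC1, an HSP90 co-chaperone, had the largest difference of the list, 0.92 (SE 0.38; adjusted p = 0.216). It ranged from 3.30 to 4.51 in wild-type and from 4.19 to 6.27 in SOD1(G93A) arrays, the last in sample 18, and without that sample the difference was 0.58. Its 95% interval, 0.08 to 1.77, included a 2-fold rise. HSF1 and HSPA5 were named for their roles, outside the naming rule.

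The genes around the called members were mostly not called, while those around DNAJC27 and DNAJC5G mostly fell. In RefSeq gene order, the 10 measured genes nearest HSPA2 on chromosome 14 held 0 called genes and lay between −0.11 and 0.08. HSPA12A and BAG3 lie on chromosome 10 with 17 measured genes between them, of which 3 rose, 0 fell and the median was 0.045. Of the 10 genes nearest BAG3, INPP5F and FGFR2 fell by 0.42 and 0.29 and GRK5 rose by 0.40. INPP5F is the measured gene directly next to BAG3, which itself fell by 0.43. The 10 nearest DNAJC28 on chromosome 21 held 0 called genes. DNAJC27, a small GTPase with a J domain, lies on chromosome 2 among 10 genes of which 8 fell, all 10 between −0.62 and −0.27. It read 5.57, 5.55, 5.58, 5.69 and 5.59 in wild-type arrays and 5.38, 5.05, 5.03, 5.26 and 5.63 in SOD1(G93A) arrays, where sample 18 alone reached the wild-type values. Its difference of −0.33 (SE 0.11) was not called (adjusted p = 0.11), but it was called lower without that sample. DNAJC5G, on the same chromosome, had 7 of 10 neighbours that fell and differed by −0.41 (SE 0.21; adjusted p = 0.32), below the lower quartile in level. DNAJC27 and DNAJC5G were examined here because earlier results of these data showed a stretch of lower genes there. The fall of their neighbours was therefore known beforehand and is not an independent result. Among all named genes 5.57% fell and 4.03% rose.

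**Figure D5:**
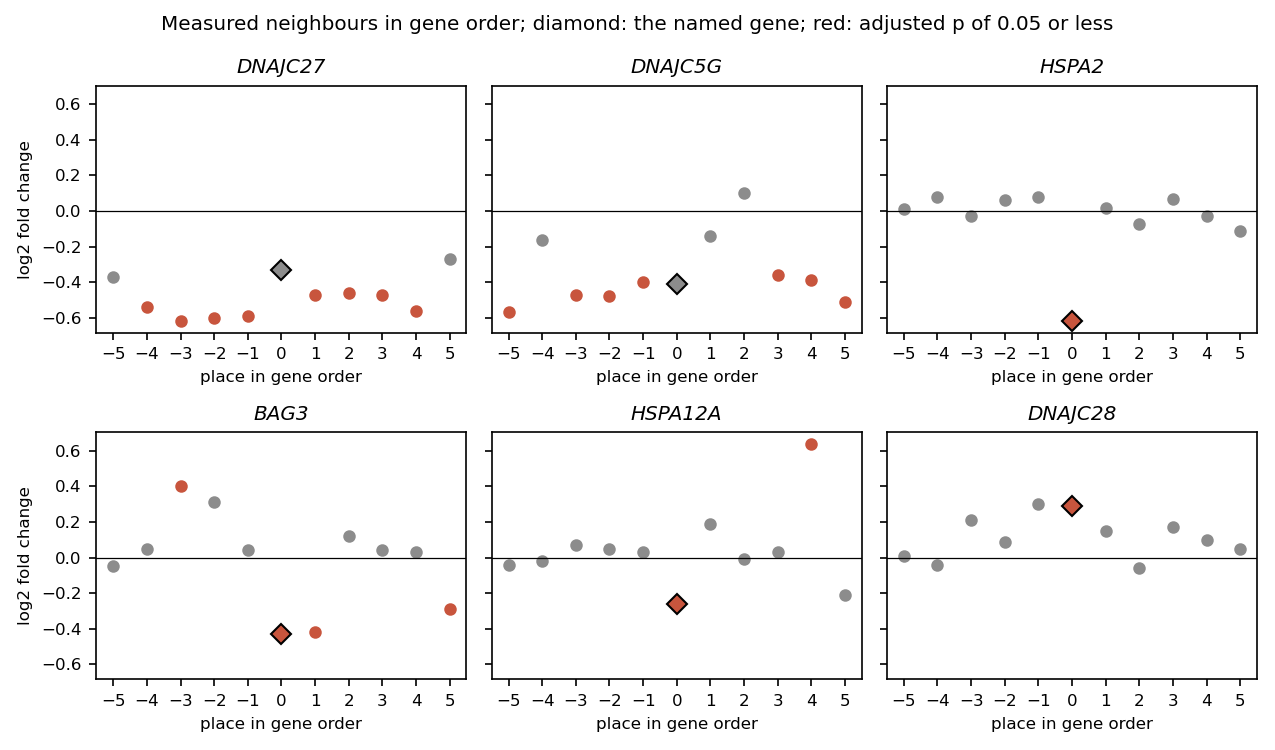
Log2 fold change, SOD1(G93A) minus wild-type SOD1 (y axis), of 6 members (diamonds) and of their 5 nearest measured genes on each side (circles) by place in gene order (x axis); red marks an adjusted p of 0.05 or less. The neighbours of DNAJC27 lie between −0.62 and −0.27, and those of HSPA2 between −0.11 and 0.08.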

How the data were processed

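Per the submitters' processing notes and the labels, the authors made the deposited gene-level log2 values from Affymetrix exon arrays with RMA, in oneChannelGUI 1.6.5. RMA subtracts background, quantile-normalizes arrays and summarises probes on the log2 scale, which hides any change common to the whole array. The sources used here do not give the genome build or filters, and no detection calls were used. The platform annotation gave exactly 1 symbol to 14432 of 22011 probe sets, several to 2408 and none to 5171, and all 62 members matched a RefSeq gene. Groups came from the sample titles. Groups were compared by limma 3.58.1 (lmFit, eBayes, 2-sided; R 4.3.3), fitted on all probe sets with no filter and called at a Benjamini-Hochberg adjusted p of 0.05 or less; it was tested on simulated data. Each difference subtracts the wild-type SOD1 mean, and its SE is moderated. Alternatives covered the probe set rule, level filter, adjustment, variance model, scaling, array weights, 2-fold threshold and left-out arrays. The members and lists were chosen with earlier results of these data known. Named genes were all called members, symbols set for their roles where measured, the largest difference of each class and the partner with the largest difference; other members are named so that each is accounted for. The number of arrays limits the precision.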

Additional observations from a re-analysis of the deposited data

Results flagged for a closer look

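Among 70 groups of 5 arrays checked (34 genes and the mean of the heat-inducible members, in each group), 3 had 1 array far from the other 4 by Dixon's ratio, which chance gives in about 1 of 20 groups. All 3 were wild-type sample 17. It read 6.58 for BAG3, where the other wild-type arrays lay between 6.02 and 6.16. It read 8.10 for HSPA2, where the others lay between 7.58 and 7.71. It read 9.82 for HSPE1, where the others lay between 9.50 and 9.59. Without that sample HSPA2 and BAG3 were still called lower.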

How the results depend on the processing

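No paired analysis was run, by choice, because the groups share no sample number and the labels name no pairs. Adjacent numbers (2 and 3, 8 and 9, 11 and 12, 14 and 15, 17 and 18) may mark samples handled together, which the labels do not say, and no fit on them was run. With the labels' 2-fold threshold added, 0 members were called higher and 0 lower, and the probe sets called fell from 1643 to 192. The count of members called higher was 1 (DNAJC28). It was 0 among probe sets above the median level, but DNAJC28 lay below that level and was left out there untested. The count was also 0 with an intensity trend and robust prior, with the ordinary linear model and after quantile normalization once more. Without samples 17 and 18 together it was 0 too, and when only named genes were tested it was 2 (DNAJC16 added). Leaving out 1 array gave 0 to 2 higher and 1 to 3 lower, with 1 only without SOD1(G93A) sample 9. Every such omission also lowered the probe sets called, from 1643 to between 1274 and 1562. Over these omissions the difference of HSPA12A ran from −0.29 to −0.22 and that of DNAJC28 from 0.25 to 0.35. HSPA2 was called lower in 19 of 20 alternatives, all but the 2-fold threshold, with differences from −0.66 to −0.53. HSPA12A lost its call in 13 of 20, among them the ordinary linear model (adjusted p = 0.0562), quantile normalization once more (0.0641) and samples 17 and 18 left out together (0.0695). DNAJC28 lost its call in 14 of 19. Without samples 17 and 18 together, BAG3, DNAJC27 and HSPA2 were called lower. Of the partners, 1 was called lower above the median level (SIL1), 2 when only named genes were tested (SIL1 and PFDN1), 1 higher without samples 17 and 18 together (PFDN5), and 0 to 1 in each direction when 1 array was left out. The members' median ran from −0.037 to 0.009, and 10 of 29 named genes that were not called had values on both sides of 0 over the alternatives. The cause of these changes was not tested.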

Other observations

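The members varied unequally between arrays of a group. The SD within groups had a median of 0.145 over the members and 0.124 over named genes. It was highest in DNAJC5G (0.366), DNAJB4 (0.323) and DNAJC8 (0.306), above 96.7% of named genes or more, and lowest in HSPBAP1 (0.057). DNAJB4, a heat-inducible J-protein, reached 7.40 in SOD1(G93A) sample 18 while the other 4 SOD1(G93A) arrays lay between 6.46 and 6.86. DNAJC8, a J-protein found with the spliceosome, read 8.38 and 8.25 in SOD1(G93A) samples 15 and 18 and between 7.42 and 7.73 in the other 3. These genes were named after their values were seen, and what sets their spread was not tested.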
